A study of Mus musculus with 54 samples.

Results

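The 150 probes described here are those most enriched in the LIN28A+ over the LIN28A- segments of P21 control testes, out of 20175 probes on the mouse whole transcriptome panel of GeoMx spatial transcriptomics. They were selected on the control libraries alone. For each of the 2 control animals the counts of 3 cross-sections were summed, scaled to CPM, the counts of a probe in a library set to the same total over all probes, and the log2 ratio of LIN28A+ to LIN28A- was taken after adding 5 CPM to each. Probes were ranked by the smaller of the 2 animals' ratios, and the top 150 are called members. The P21 control values are therefore a description with no test, and the results below rest on the P21 cKO, Diff, Spg-only and P6 libraries, which the ranking did not use.

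The study compared testes of Blimp1-*Cbfb* cKO mice (Blimp1-Cre Tg; *Cbfb* fl/fl) with heterozygous controls that carry the same Cre and 1 floxed allele, at postnatal day 6 (P6) and 21 (P21), in 54 libraries of 10 groups. The Cre, driven by a *Blimp1* transgene, acts in the germline from before birth, so every germ cell stage was exposed to it, and it has been seen in some somatic tissues too. LIN28A+ segments were taken at P6 (3 cKO and 3 control animals, 3 sections each), and LIN28A+ and LIN28A- segments at P21 (2 animals of each genotype, 3 sections each). In P21 cKO testes, further regions were placed on tubules that held only spermatogonia (Spg-only, LIN28A+, 3 regions) or that also held spermatocytes, though not a full set of them (Diff, 4 LIN28A+ and 4 LIN28A- regions). The animals behind these regions are not given, and with at most 2 cKO animals at P21 some of them share an animal. A further P6 region has Background in place of a genotype. Outside the Diff and Spg-only tubules, a circular region was placed at random in each cross-section.

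LIN28A is an RNA-binding protein found in undifferentiated spermatogonia, the population that holds the stem cells of the testis, and it is lost as germ cells differentiate. DDX4, an RNA helicase of the germline, was stained alongside it, so LIN28A+ segments were meant to hold undifferentiated spermatogonia, and LIN28A- segments the more advanced germ cells with DDX4 but no LIN28A, such as spermatocytes. Genes used to choose the segments are no finding between them. CBFβ is the partner subunit through which RUNX transcription factors bind DNA stably.

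The probe identifiers are not paired with gene names in the files used here, and 0 of them matched the tables of gene names, RefSeq genes, promoters or miRNAs. Members are therefore given by identifier, the functions of their genes are not described, and neither *Lin28a*, *Ddx4* and *Cbfb* nor any cell type marker could be checked against the labels. What the files do give for each probe is its readout tag, a barcode of 12 bases that is cut from the probe by light and sequenced in place of the transcript. The tags of the 10 leading members are shown because each count below is a count of that tag.
RTS0068460: atcacctggctt
RTS0068462: tctggtaagaac
RTS0074877: tccgaattagat
RTS0068409: aggttacggcgc
RTS0068401: tatatgtatgaa
RTS0079417: tatgattccgcg
RTS0068350: atatggagcctg
RTS0069394: tacaactatgat
RTS0068463: ggttcgctggcc
RTS0068336: cgcttccatcga
A tag is not complementary to the transcript and says nothing of the gene. Among the 150 members, 92 have a tag that lies 2 mismatches from the closest other tag on the panel, and 58 have one that lies 3 mismatches away.

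Libraries differed in depth by segment. In P21 cKO animals the LIN28A+ libraries held 160230 to 837610 counts and the LIN28A- libraries 2096394 to 3672859, and in P21 controls the ranges were 189280 to 721322 and 2115530 to 7085244. The Diff regions were closer, with 160983 to 283215 counts in LIN28A+ and 231410 to 738575 in LIN28A- segments. Spg-only regions held 76337 to 178737 counts, in which the median member had 6 to 14 counts. The P6 libraries held 102271 to 2552455. In all animals and regions the median of all 20175 probes lay at 36.0 to 45.5 CPM, the level against which the values below can be read.

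In the control animals that chose them, the members' LIN28A+ to LIN28A- ratio had a median of 1.00 on the log2 scale in animal 1 and 0.65 in animal 2. Of the 150 members, 133 had the larger ratio in animal 1. RTS0068460, the first by rank, stood at 1054 CPM in the LIN28A+ segment of control animal 1 and at 319 CPM in that of animal 2, against 95.6 and 87.9 CPM in the LIN28A- segments. RTS0068462 stood at 474 and 165 CPM in LIN28A+ and at 55.4 and 52.4 CPM in LIN28A- segments, and RTS0068463 at 180 and 70.1 CPM against 37.3 and 31.0 CPM. These 3 members were high in animal 1 above all. RTS0068350 was more even, at 512 and 434 CPM in LIN28A+ and 220 and 201 CPM in LIN28A- segments. The rank order leaves no gap at its end: the last member, RTS0076393, had a smaller ratio of 0.52, and the first probe outside, RTS0070465, one of 0.51.

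**Figure D1:**
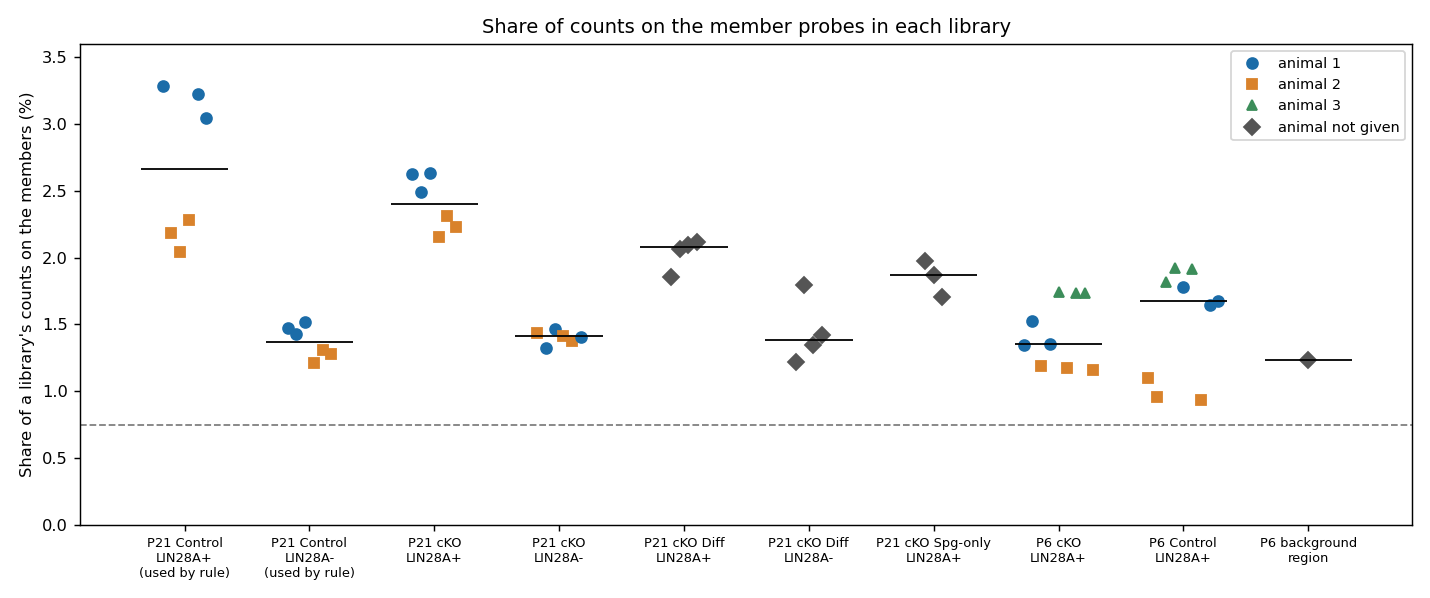
Each point is a library, the y axis is the percent of its counts that fell on the 150 members, bars are group medians, and the dashed line is the members' share of all probes. Within control animals, cKO animals and Diff tubules at P21, every LIN28A+ library lies above every LIN28A- library, and the P6 control and cKO libraries lie between 0.933 and 1.92%.

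The members make up 0.743% of the probes and took a larger share of the counts in every library. In P21 cKO animals, whose libraries the ranking did not use, the share was 2.16 to 2.63% in the 6 LIN28A+ libraries and 1.32 to 1.46% in the 6 LIN28A- libraries, and the ranges did not overlap. In Diff regions it was 1.85 to 2.12% in LIN28A+ and 1.21 to 1.79% in LIN28A- segments, again without overlap, with region 4 the highest of the LIN28A- segments. Spg-only regions took 1.71 to 1.98%. At P6 the ranges of the genotypes overlapped and those of the animals mostly did not: control animals 1, 2 and 3 took 1.65 to 1.78%, 0.933 to 1.10% and 1.82 to 1.92%, and cKO animals 1.35 to 1.53%, 1.16 to 1.19% and 1.73 to 1.74%. The P6 background region, with 53821 counts, had a share of 1.23%, which rested on a few members: RTS0068366 stood at 1579 CPM, RTS0070220 at 1561 CPM and RTS0068350 at 1412 CPM there, while the median member stood at 37.2 CPM, as did the median of all probes. RTS0068460, the first by rank, stood at 186 CPM in that region, above its 67.4 to 105 CPM in P6 LIN28A+ segments. The background region held 0.226 counts per unit of area, beside 9.58 to 73.1 in P6 control and 37.2 to 80.0 in P6 cKO segments. CPM do not show this difference. The part of background signal in the values of RTS0068460 was not tested.

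The first comparison asks whether the members distinguish the segments in animals that lack *Cbfb* in the germline. In P21 cKO animals, 123 of the 150 members were higher in LIN28A+ than in LIN28A- segments and 0 were lower at an adjusted p under 0.05, by edgeR's quasi-likelihood test with the animal as a block (2 animals, adjusted over all 20175 probes). Of all probes tested, 2.39% were higher and 4.61% lower. The members' median log2 fold change was 0.66, with quartiles of 0.52 and 0.91, beside a median of -0.01 over all probes. In bulk segments, more cells of a type and more RNA per cell cannot be told apart.

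The members with the smallest p were RTS0066123 and RTS0070220. RTS0066123 stood at 645 and 633 CPM in the LIN28A+ segments of cKO animals 1 and 2 and at 275 and 279 CPM in their LIN28A- segments, a log2 fold change of 1.17 ± 0.09 (SE, edgeR adjusted p = 2.3e-17). RTS0070220, the most abundant of the named members, stood at 5853 and 5063 CPM against 3782 and 3627 CPM, a log2 fold change of 0.52 ± 0.04. For both probes, both LIN28A+ values lay above both LIN28A- values. Without the animal as a block, their standard errors were 0.17 and 0.14, with edgeR adjusted p-values of 2.6e-06 and 0.011. The largest log2 fold change was that of RTS0081052, at 1.80 ± 0.15, and it came with a wide spread between animals: 354 CPM in the LIN28A+ segment of cKO animal 1 and 87.8 CPM in that of animal 2, against 62.6 and 42.6 CPM.

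All 10 leading members were higher in the LIN28A+ segments of cKO animals, with log2 fold changes between 1.01 and 1.47. RTS0068460 stood at 148 and 207 CPM in LIN28A+ against 67.4 and 61.3 CPM in LIN28A- segments, a log2 fold change of 1.47 ± 0.13. RTS0068336 stood at 366 and 341 CPM against 140 and 146 CPM, and RTS0068409 at 486 and 494 CPM against 195 and 227 CPM. In all 10 members the LIN28A+ values of both animals exceeded both LIN28A- values. The same count over all probes was not made, so nothing is read from this separation.

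The lower end of the list did not hold as well. Of the members ranked 1 to 50, 49 were called higher in cKO animals, of those ranked 51 to 100, 43, and of those ranked 101 to 150, 31, and the median log2 fold changes of the 3 tiers were 1.00, 0.56 and 0.55. The 27 members that were not called had a median of 51.2 CPM in the LIN28A+ segments, where the median of all probes was 41.0 CPM and the median of the 123 called members 98.8 CPM. RTS0077200 and RTS0074076 had log2 fold changes just under 0: RTS0077200 stood at 33.8 and 40.7 CPM in LIN28A+ and at 37.1 and 39.0 CPM in LIN28A- segments, and RTS0074076 at 32.5 and 34.4 CPM against 30.5 and 35.1 CPM. Neither probe differed beyond its standard error, which was 0.16 and 0.17 on the log2 scale.

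Section by section, 140 to 149 of the 150 members had a ratio above 0 in each of the 6 cKO cross-sections, with medians of 0.79 to 0.85 in animal 1 and 0.51 to 0.64 in animal 2, while 49.0 to 52.4% of all probes did. Without cKO animal 1 the members' median log2 fold change was 0.58, and without animal 2 it was 0.83. The spread then comes from a fit that holds the control animals as well, with 1 cKO animal left, so no calls are counted. Among the leading members, RTS0068463 lost its call without animal 2 (log2 fold change 0.72). The lower depth of the LIN28A+ libraries moves with the segment, and its part in the result was not tested.

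**Figure D2:**
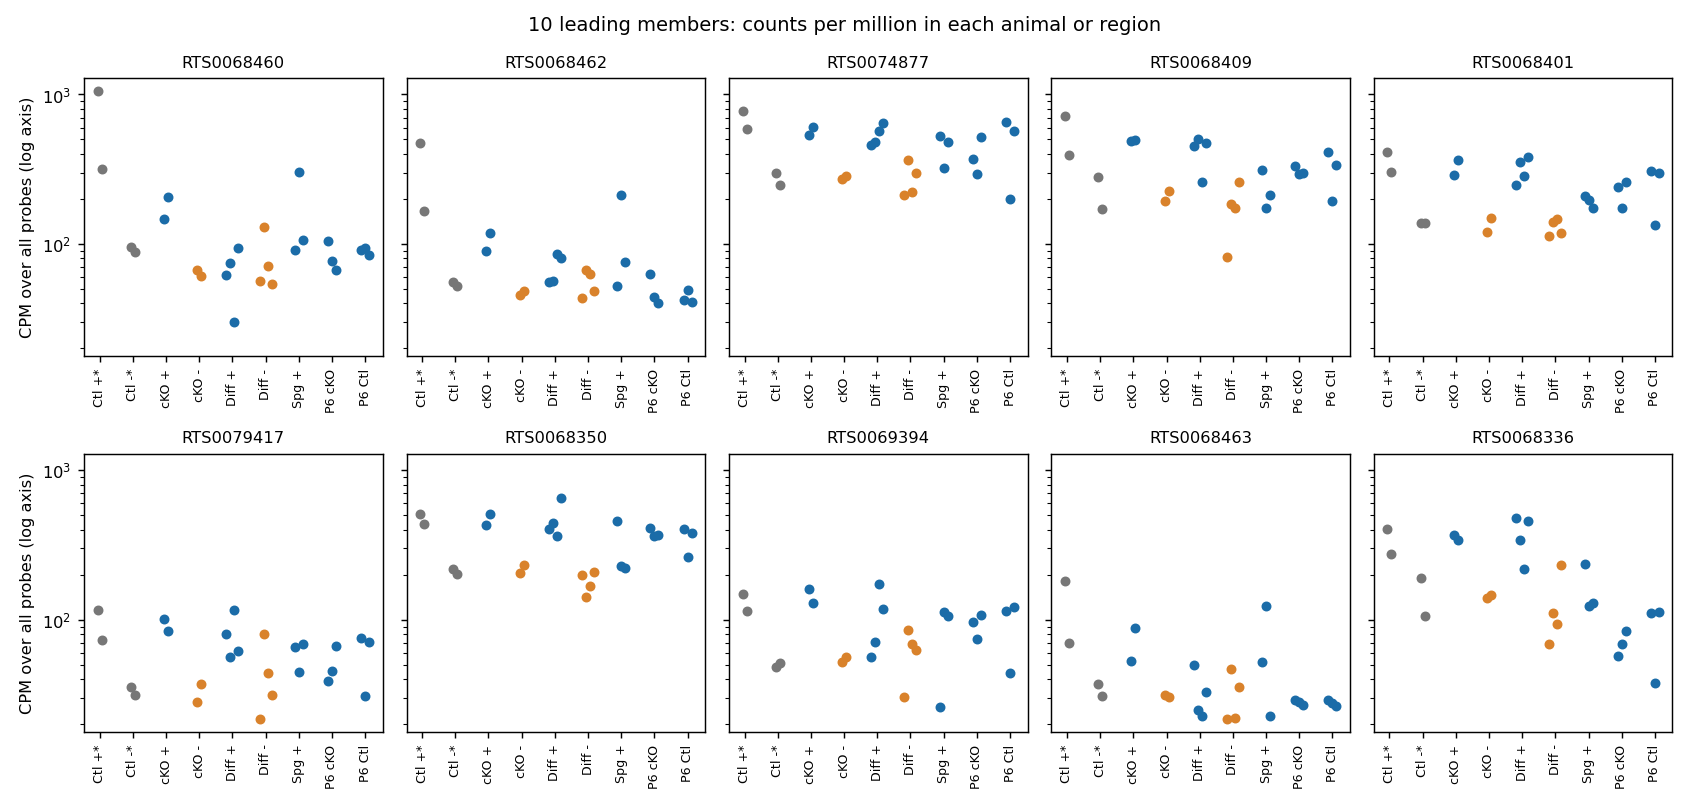
Each panel is 1 of the 10 leading members, each point a sum over an animal's sections or a single region, and the y axis CPM over all probes on a log axis, with + and - for LIN28A status and * for the control groups used by the rule. In P21 cKO animals (cKO + and cKO -) the LIN28A+ values lie above the LIN28A- values in all 10 panels, a separation that was not counted over all probes.

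Diff tubules allow the same contrast in other libraries and at more similar depth. There, 6 of the 150 members were higher in LIN28A+ segments and 0 were lower (edgeR's quasi-likelihood test, 4 against 4 regions), while 0.0459% of the 15264 probes tested were higher and 0.197% lower. As some regions share an animal, p-values over regions are too small. Of the members 148 passed the filter on low counts, and in a fit without the filter, which takes all 150, their median log2 fold change was 0.42 beside -0.00 for all probes, with 135 members above 0. In 23 of the 150 members all 4 LIN28A+ regions lay above all 4 LIN28A- regions, 15.3% of the members against 1.73% of all probes. Each region was split into its LIN28A+ and LIN28A- parts, so the region number pairs the segments. Within each of the 4 regions LIN28A+ lay above LIN28A- in 56 members, 37.3% against 6.86% of all probes.

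With the region as a replicate block, edgeR called 9 members higher and 0 lower, while 0.0801% of the 18735 probes then tested were higher and 0.240% lower. These 9 were the 6 members above together with RTS0068405, RTS0066123 and RTS0061516, named after their values were seen, with log2 fold changes of 1.10 ± 0.19, 0.91 ± 0.18 and 0.88 ± 0.22. The p-values are too small in this fit also, for the same reason.

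RTS0068350 had the smallest p without the block. It stood at 404, 445, 651 and 364 CPM in LIN28A+ regions 1 to 4 and at 207, 199, 167 and 142 CPM in LIN28A- regions 1 to 4, a log2 fold change of 1.38 ± 0.22 (edgeR adjusted p = 0.00025), without overlap. RTS0068336 stood at 478, 339, 458 and 218 CPM against 232, 69.1, 93.1 and 111 CPM, a log2 fold change of 1.46 ± 0.25 (edgeR adjusted p = 0.00033). Its lowest LIN28A+ region lay just below its highest LIN28A- region, but within each region LIN28A+ was the higher, and with the block its log2 fold change was 1.58 ± 0.21. RTS0068401, RTS0068409 and RTS0074877 were also higher, with log2 fold changes of 1.30, 1.21 and 0.97. The other called member, named after its values were seen, was RTS0068366, with 174, 205, 203 and 165 CPM against 104, 64.8, 57.5 and 72.5 CPM and a log2 fold change of 1.26 ± 0.23. In CPM, RTS0068350 and RTS0068366 were higher in the P6 background region, at 1412 and 1579 CPM, than in any of these regions. That region held 0.226 counts per unit of area, beside 35.5 to 53.6 in LIN28A+ and 33.6 to 59.5 in LIN28A- Diff regions. CPM therefore do not compare their levels per area. The part of background signal in the values of these 2 probes was not tested.

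Of the 6 calls, RTS0074877 was lost when any of LIN28A+ regions 2, 3 or 4 or LIN28A- regions 2 or 3 was left out, and RTS0068409 when region 2 of either segment was. LIN28A+ regions 2 and 3 agreed within sampling noise, with a chi-square of 1.01 for each degree of freedom against 1.05 to 1.13 in the other 5 pairs of the group. Counting them as 1 sample left 5 members called, with 32 of 19581 probes called. Without LIN28A- region 4, 12 members were called, and calls over all probes rose as well, from 37 of 15264 to 109 of 15789.

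Not every leading member separated the segments of Diff tubules. RTS0068460 stood at 62.1, 74.1, 94.3 and 30.0 CPM in LIN28A+ and at 54.2, 56.2, 71.2 and 130 CPM in LIN28A- regions, which overlapped throughout (log2 fold change -0.25 ± 0.28). The members with the smallest p below 0 were RTS0074107 (log2 fold change -0.43 ± 0.28) and RTS0069165 (-0.30 ± 0.27), and neither passed the test. RTS0068463, at 22.5 to 49.7 CPM in LIN28A+ regions, did not pass the filter on low counts.

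**Figure D3:**
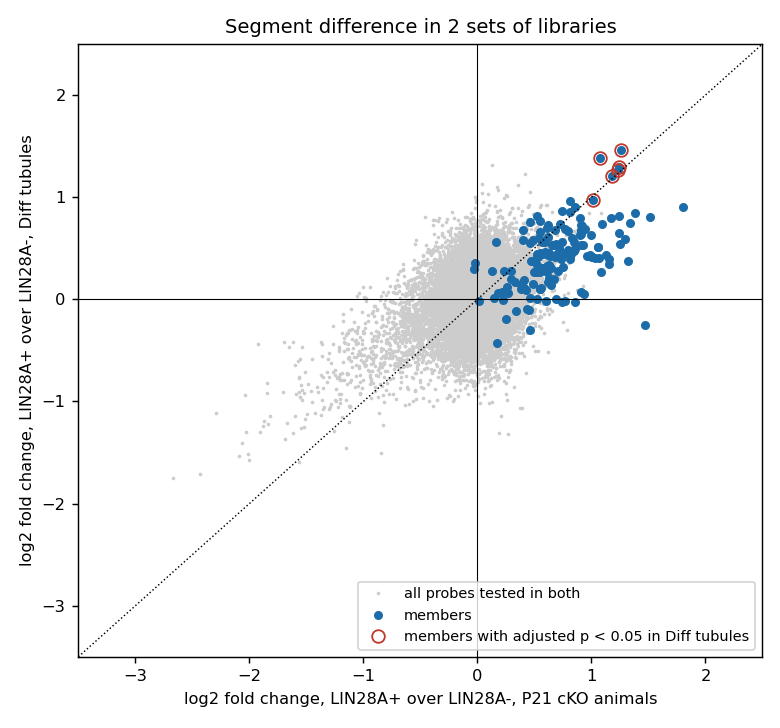
Each point is a probe, with its LIN28A+ over LIN28A- log2 fold change in P21 cKO animals on the x axis and in Diff tubules on the y axis, and members in blue over all probes in grey. Most members lie right of 0 and above 0, the 6 circled members called in Diff tubules lie near the dotted line of equal values, and RTS0068460 lies apart at 1.47 and -0.25.

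Across the 148 members fitted in both sets of libraries, Spearman's rho between the log2 fold changes was 0.53, and across the 15264 probes fitted in both it was 0.27. This is a description across probes, which are not independent replicates, and the libraries share the age, the genotype and possibly the animals. In 121 of the 148 members the log2 fold change was smaller in Diff tubules, as it was in 7166 of the 15264 probes. Whether the segment difference of any member differed between the 2 sets was not tested.

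Spg-only and Diff tubules were compared within LIN28A+ segments, which asks whether the members' level in undifferentiated spermatogonia goes with the state of the tubule. Among the 128 members that passed the filter on low counts, 1 was higher in Spg-only tubules, RTS0068460, and 3 were lower, RTS0068336, RTS0068405 and RTS0068409 (edgeR's quasi-likelihood test, 3 against 4 regions). They were the 4 probes called among the 5740 tested, so that 0.0174% were higher and 0.0523% lower. As some regions share an animal, p-values over regions are too small here as well. The other 22 members were not tested.

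RTS0068460 stood at 106, 91.7 and 302 CPM in Spg-only regions 1 to 3 and at 62.1, 74.1, 94.3 and 30.0 CPM in Diff regions 1 to 4, a log2 fold change of 1.56 ± 0.27 (edgeR adjusted p = 5.3e-05). Region 3 was far above the others, Spg-only region 2 lay below Diff region 3, and without Spg-only region 3 the log2 fold change was 0.62 and the probe was not called. Only Spg-only region 3 lay above the 186 CPM of RTS0068460 in the P6 background region. That background region held 0.226 counts per unit of area, beside 37.1 to 53.1 in Spg-only regions. RTS0068462 and RTS0068463 were also highest in Spg-only region 3, at 213 and 123 CPM, but did not pass the test or the filter. The next member higher by p, RTS0069165, stood at 45.5, 78.6 and 157 CPM against 49.7, 60.0, 28.3 and 41.3 CPM and did not pass the test.

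RTS0068336 stood at 129, 236 and 123 CPM in Spg-only regions and at 478, 339, 458 and 218 CPM in Diff regions, a log2 fold change of -1.27 ± 0.24 (edgeR adjusted p = 0.00019). RTS0068405 stood at 182, 393 and 145 CPM against 696, 378, 472 and 233 CPM (log2 fold change -1.0 ± 0.22, edgeR adjusted p = 0.0081). In both probes Spg-only region 2 lay within the range of the Diff regions, and the other Spg-only regions lay below all of them. For RTS0068409 the log2 fold change was -0.93 ± 0.22.

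These calls were fragile. DESeq2 and limma-voom, run on the same regions, called 0 members and 0 of all 5740 probes. Without Spg-only region 3 edgeR called 0 members and 1 of 8792 probes. Without LIN28A+ Diff region 2 it called 0 members and 0 of 4281 probes. With LIN28A+ Diff regions 2 and 3 counted as 1 sample it called 2 members, the 2 probes called among 4093. Over all 150 members, 6 lay higher in every Spg-only region than in every Diff region and 8 lower, 4.00% and 5.33% of the members, against 3.57% and 3.44% of all probes. The median log2 fold change of all 150 in the fit without a filter was -0.12, beside -0.02 for all probes.

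Between P6 and P21, within LIN28A+ segments of cKO testes, 87 of the 150 members were higher at P21 and 0 were lower (edgeR's quasi-likelihood test, 2 against 3 animals), while 5.90% of the 20175 probes were higher and 1.71% lower. Age cannot be told apart from the plate, since each age had its own. This contrast shares the P21 cKO LIN28A+ libraries with the contrast of segments, so the 2 counts do not bear on each other independently. The median log2 fold change of the members was 0.57, beside -0.02 over all probes, and in 127 members both P21 animals lay above all 3 P6 animals, 84.7% against 19.4% of all probes.

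RTS0081052 had the smallest p, with 354 and 87.8 CPM at P21 and 45.3, 37.2 and 46.9 CPM at P6, a log2 fold change of 2.26 ± 0.18 (edgeR adjusted p = 5.9e-24). RTS0068336 followed, with 366 and 341 CPM at P21 and 57.0, 68.9 and 84.4 CPM at P6, a log2 fold change of 2.31 ± 0.19. Both P21 values of each probe lay above all 3 P6 values, and for RTS0081052 the size of the change was set mainly by cKO animal 1. Its log2 fold change was 1.03 without P21 cKO animal 1 and 3.07 without animal 2. DESeq2 gave RTS0081052 a wider standard error, at 2.37 ± 0.73 (DESeq2 adjusted p = 0.018). The largest log2 fold change, named after its values were seen, was that of RTS0064300, with 878 and 606 CPM at P21 and 129, 89.0 and 146 CPM at P6 (2.62 ± 0.22).

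Leading members differed in how their level at P6 compared with P21. RTS0068350 stood at 431 and 513 CPM in P21 cKO animals and at 412, 361 and 366 CPM at P6 and was not called (log2 fold change 0.32 ± 0.22), and RTS0074877, at 539 and 610 CPM against 368, 293 and 518 CPM, was not called either. RTS0066123 stood at 645 and 633 CPM against 557, 572 and 621 CPM (log2 fold change 0.14 ± 0.24). RTS0068462, at 90.03 and 119 CPM against 62.5, 44.5 and 40.6 CPM, was higher at P21 (log2 fold change 1.25 ± 0.15). No member was called lower at P21. The smallest p of those below 0 belonged to RTS0077009, at 244 and 226 CPM against 448, 288 and 266 CPM (log2 fold change -0.50 ± 0.22), and RTS0078332, at 27.5 and 43.0 CPM against 52.4, 44.5 and 48.1 CPM, which was close to the median of all probes. RTS0077009 passed the test without P6 cKO animal 3 (log2 fold change -0.65) and with the animal number as a block (-0.60). The fit with the block also left out P6 animal 3. P6 and P21 animals are different mice that the number does not pair, so that fit is no support for a call. Values of RTS0077009 ran from -0.22 to -0.65 over the alternatives.

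**Figure D4:**
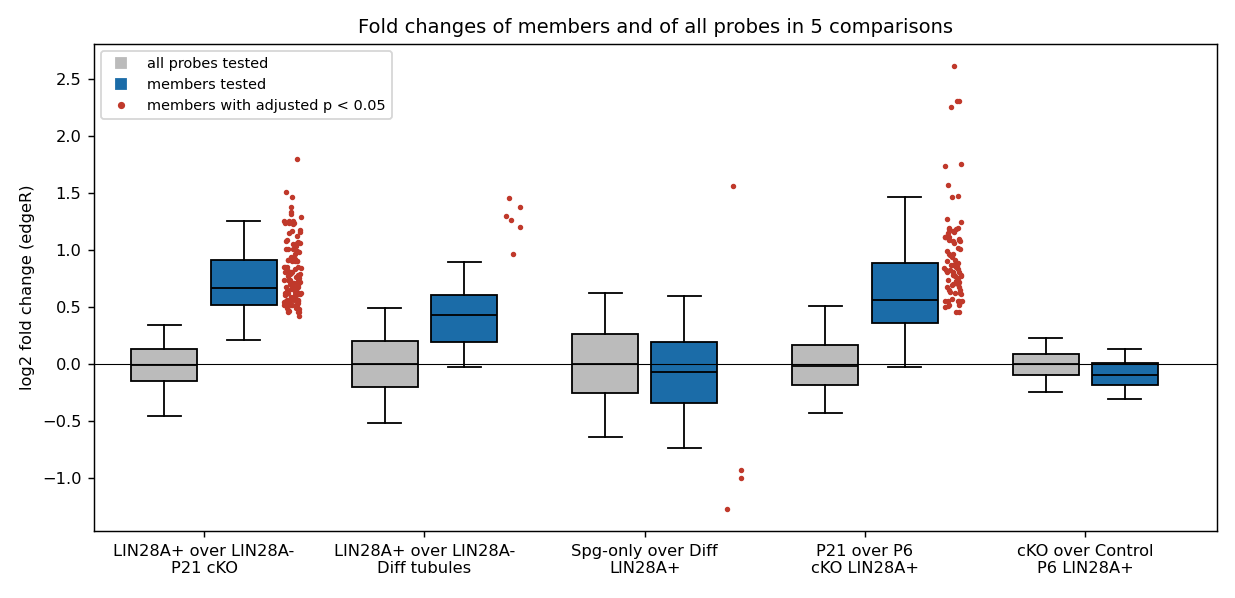
Boxes give the quartiles and whiskers the percentiles 5 to 95 of the edgeR log2 fold change (y axis) for all probes tested in grey and for the members tested in blue, and red points are the members with an adjusted p under 0.05. The members lie above all probes in both segment contrasts and in P21 over P6, with 123, 6 and 87 calls, and near 0 in the contrasts of Spg-only with Diff tubules and of genotypes at P6.

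At P6, the comparison of genotypes asks whether the members' level changed in LIN28A+ segments. By edgeR's quasi-likelihood test of 3 against 3 animals, 0 members and 0% of the 20175 probes were called, and 2 members were higher and 7 lower at an unadjusted p under 0.05, where 644 and 901 of all probes were (3.19% and 4.47%). DESeq2 called 1 member, with 65 of all 20175 probes called, and limma-voom called 0 members and 0 probes. The members' median log2 fold change was -0.09, beside 0.00 over all probes, and 110 of the 150 lay below 0. In 4 members all cKO animals lay above all controls, and in 1 all lay below, against 7.52% and 4.93% of all probes. This contrast shares the P6 cKO libraries with the contrast of ages.

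RTS0065956 came closest to a call. It stood at 139, 129 and 111 CPM in cKO animals 1 to 3 and at 282, 184 and 162 CPM in control animals 1 to 3, without overlap, a log2 fold change of -0.76 ± 0.19 (edgeR adjusted p = 0.25). It was the member called lower by DESeq2 (adjusted p = 0.0099). Over all alternatives its adjusted p ran from 0.0015, by edgeR with the animal number as a block, to 0.99986 by edgeR without control animal 1. The number does not pair cKO with control mice, so the fit with that block is no support for a call. RTS0061863, at 51.6, 49.5 and 42.0 CPM against 56.5, 47.2 and 65.0 CPM, was next (log2 fold change -0.31 ± 0.12). Those with the smallest p above 0 were RTS0078020, at 35.2, 42.9 and 44.5 CPM against 34.0, 33.8 and 36.7 CPM, and RTS0063295, at 39.9, 42.2 and 41.6 CPM against 33.2, 25.6 and 41.6 CPM. Both were near the median of all probes.

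At P6 the level of members also varied between animals of the same genotype. Control animal 2 had the lowest of the 6 values in 98 of the 150 members, against 22.0% of all probes. RTS0074877 stood at 656, 201 and 569 CPM in control animals 1 to 3 and at 368, 293 and 518 CPM in cKO animals. RTS0070220 stood at 3444, 706 and 5538 CPM in controls and at 2275, 1441 and 5273 CPM in cKO animals, so that its lowest and its highest value were both controls. Without control animal 2, 4 members were called lower in cKO animals, and without control animal 3, 1, while 50 and 24 of all 20175 probes were called in these fits.

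At P21 the genotypes can be set side by side only as values, since the control libraries chose the members. In LIN28A+ segments the log2 ratio of the mean cKO to the mean control level, with 5 CPM added, had a median of -0.11 over the members and 0.02 over all probes. In 26 members both cKO animals lay below both controls and in 4 both lay above, beside 11.7% and 17.5% of all probes. The rule favours high LIN28A+ control values, so nothing is read from this skew. RTS0068460, at 148 and 207 CPM in cKO and 1054 and 319 CPM in control animals, was among the former. RTS0066123, at 645 and 633 CPM in cKO and 198 and 306 CPM in control animals, was among the latter, and it was also higher in the LIN28A- segments of cKO animals, at 275 and 279 CPM against 117 and 176 CPM. In LIN28A- segments, 3 members lay below and 36 above both controls, beside 8.17% and 22.5% of all probes, with a median log2 ratio of 0.06 over the members and 0.05 over all probes, and here the rule favours low control values.

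**Figure D5:**
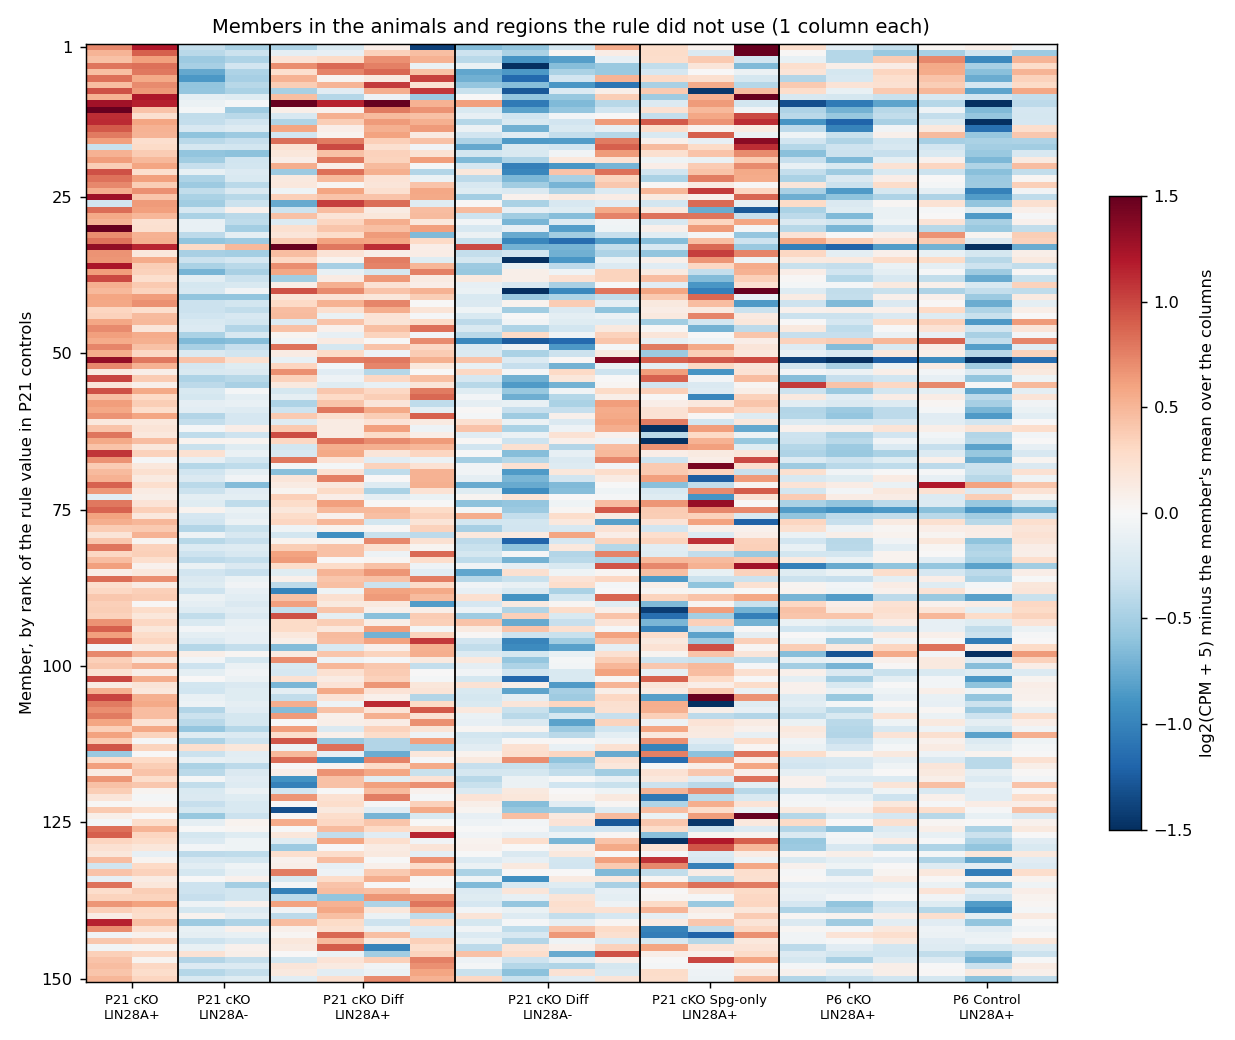
Rows are the 150 members by rank, columns the animals and regions that the rule did not use, and colours log2(CPM + 5) minus the member's mean over the columns. The P21 cKO LIN28A+ columns are red over most rows and the LIN28A- columns blue, with single rows that are blue at P6 or red in Spg-only region 3.

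Several leading members have identifiers close to each other. Of the 973 probes whose identifiers begin with RTS0068, 23 are members (2.36%, beside 0.743% of all probes), and 8 of these lie between RTS0068336 and RTS0068409. Nothing read here says what the order of identifiers reflects, and the group was seen in these data, so it is described with no test. These 8 members had log2 fold changes of 0.61 to 1.26 between segments in P21 cKO animals, of 0.56 to 1.46 in Diff tubules, and of -1.27 to -0.41 between Spg-only and Diff tubules. They include 5 of the 6 members called in Diff tubules and the 3 members called lower in Spg-only tubules. Their values between P6 and P21 were spread widely, from 0.22 for RTS0068363 to 2.31 for RTS0068336 and RTS0068405.

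A further 4 members, RTS0068460, RTS0068462, RTS0068463 and RTS0068496, follow in the identifier order. Between segments in P21 cKO animals they had log2 fold changes of 1.01 to 1.47 and between P6 and P21 of 0.97 to 1.46, all 4 called in both. In Diff tubules, where 3 of them passed the filter, they ranged from -0.25 to 0.41 with 0 called, and between Spg-only and Diff tubules from 0.09 to 1.56 with 1 called. Whether these 4 differ from the 8 before them was not tested. Of all 150 members, 24 were called in none of the 5 comparisons. The same count over all probes was not made, so nothing is read from it. In any of the 5, at most 5.90% of the probes tested were called in 1 direction.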

How the data were processed

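Members and comparisons were chosen with earlier results of these data known. The authors processed the reads with the GeoMx NGS Pipeline (2.3.3.10), which collapses reads by molecular identifier. The deposited values are raw whole-number counts per probe with no normalization or filter, and a probe not listed was set to 0. The submitters' notes also name R 4.3.0. Tags and segment areas come from the pipeline's settings files, in which 13 areas belong to no sample and were not used. The pipeline's statistics files were not used.

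The number before the dot in a label was read as the animal and the sections of an animal were summed, while each Diff or Spg-only region was a unit. In each of the 5 comparisons edgeR 4.0.16 (R 4.3.3) was run on all probes with TMM factors, filterByExpr (minimum count 10), estimated dispersions, glmQLFit and glmQLFTest, and p-values adjusted by Benjamini-Hochberg (called under 0.05). The contrast of segments in P21 cKO animals had the animal as a block, since the same animals gave both segments (correlation of deviations from the group means 0.14). In Diff tubules the same region gave both segments, and the fit with the region as a block is given beside the one without it, although same-numbered segments correlated at 0.0021 to 0.045 only. Standard errors are those implied by the F statistic. CPM are over all probes. No p-value was computed over the list. P-values rest on the spread between 2 or 3 animals, or between regions, after edgeR draws each probe's spread toward that of all probes. With so few animals, the standard errors and the small p-values lean on this shared spread. They do not give the precision of 2 animals alone.

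Alternatives were DESeq2 1.42.0, upper-quartile factors, no filter, limma-voom 3.58.1, other list lengths and pseudocounts of the rule, a replicate block, sections as units and each animal or region left out. Added after the data were seen were lists from a single control animal, LIN28A+ Diff regions 2 and 3 as 1 unit, and the P6 sum without its shallowest control section. The edgeR procedure was tested on simulated data. Named are the 10 members of highest rank, the 2 higher and 2 lower members with the smallest p in each comparison, and the probes on both sides of the threshold.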

Additional observations from a re-analysis of the deposited data

Results flagged for a closer look

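Among 208 sets of 4, 6 or 9 libraries, made of the named members and the member share in each group, 14 had a library farther from the rest than Dixon's 95% critical value allows, where chance flags about 1 in 20. No explanation was tested for any of them. In LIN28A- Diff tubules, region 4 was high for RTS0066123 (585 CPM, group median 207), RTS0063295 (75.1 CPM, median 41.9) and RTS0065956 (119 CPM, median 71.6), and region 1 for RTS0068405 (433 CPM, median 149). In P21 cKO LIN28A- segments, section 2.2 was high for RTS0068405 (441 CPM, median 263) and RTS0076393 (52.3 CPM, median 47.6), section 2.1 for RTS0069394 (63.0 CPM, median 52.7) and RTS0069165 (46.2 CPM, median 32.0), and section 1.1 was low for RTS0074076 (23.6 CPM, median 33.6).

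In P21 LIN28A+ cKO segments, section 1.1 was high for RTS0069165 (137 CPM, median 46.1). In P21 LIN28A- control segments, section 1.2 was high for RTS0076393 (48.4 CPM, median 43.3). At P6, control section 2.2 was low for RTS0076393 (23.7 CPM, median 41.8), cKO section 2.2 was low for RTS0074107 (25.6 CPM, median 41.0) and cKO section 1.2 was low for RTS0069165 (26.2 CPM, median 42.3).

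The P6 region labelled background entered no comparison. The members took 1.23% of its 53821 counts, above their share of the probes, but the median member and the median of all probes both stood at 37.2 CPM. RTS0068366 (1579 CPM), RTS0070220 (1561 CPM) and RTS0068350 (1412 CPM) were the highest members there.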

How the results depend on the processing

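Of 150 members, the share called between segments in P21 cKO animals was 82.0%, and 37.3 to 62.0% with an animal left out. It was 79.3% with no replicate block and 76.7% with the block over all 8 P21 sums, which include the control sums that chose the members. By DESeq2 it was 68.8% of the members given an adjusted p, with 75 of the 150 called and 41 given none. Of all 20175 probes, 1413 were called in the main fit, 1114 with no block, 1135 over all 8 sums and 483 by DESeq2. For lists chosen on control animal 1 or 2 alone the share of members called was 75.3% and 63.3%. In Diff tubules the share was 4.00%, with 2.67 to 8% over regions left out, 2.00% for the top 300, and 15.9% of the 44 members given an adjusted p by DESeq2 (7 calls). With the region, which holds both segments, as a replicate block it was 6% (9 members). Of all probes, 37 were called in the main fit of Diff tubules and 13 to 109 with a region left out. DESeq2 called 31 of all probes and the fit with the block 60. At P6 the share of members called was 0%, with 0 to 2.67% over animals left out. It was 0.67% with the animal number as a replicate block or sections as units with animal as random effect. By DESeq2 it was 2.56% of the members given an adjusted p, each of these being 1 member, lower in cKO. Over all probes, 69 were called with that block, 70 with sections as units and 65 by DESeq2. Between Spg-only and Diff tubules the share was 2.67%, with 0 to 3.33% over regions left out and 0% by DESeq2 and limma-voom. It was 1.33% with no filter, for the top 300 or with LIN28A+ Diff regions 2 and 3 as 1 unit, and 2.00% with the replicate block. Of all probes, 4 were called in the main fit, 0 to 6 with a region left out, 3 with no filter and 3 with the block. The median log2 fold change there was -0.07, turned to 0.065 for members chosen on control animal 1 alone, and was -0.22 without Spg-only region 3. Between P6 and P21 the share of members called was 58.0%, with 44 to 60.7% over P6 animals left out and 66.7% with the replicate block. Of all 20175 probes, 1536 were called in the main fit, 751 to 1667 with a P6 animal left out and 1845 with the block. In the contrasts of genotypes, ages and tubule types the groups hold different animals or regions, so the numbers do not pair samples. Fits with the number as a block are given there as alternatives only. For ages and tubule types they also left out samples whose number only 1 of the groups has.

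The medians between segments and between ages kept their sign under every alternative run: 0.52 to 0.83 in P21 cKO animals, 0.35 to 0.53 in Diff tubules and 0.45 to 0.73 between P6 and P21. At P6 the range was -0.20 to -0.02. The part of depth in these results was not tested.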
